A study of Mus musculus with 14 samples.

Results

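Cells of the mouse line MC3T3-E1, osteoblast precursors that lay down bone matrix in culture, were compared at day 5 between libraries labelled MACF1 knockdown ("sh") and libraries labelled control ("NC"). The genes described are those with at least 10 counted reads in at least 2 of the 4 day 5 libraries, which were 12430 of the 24346 genes in the count table. There were 2 libraries of polyadenylated RNA per condition, out of 14 in the series, which also holds days 0 and 3 with 2 libraries per condition and day 10 with 1. The series asks whether MACF1 furthers osteoblast differentiation by keeping repressors of Wnt signalling in the cytoplasm. Both conditions are of the same line and have no allele or agent in the labels other than the knockdown. How the knockdown was made, whether its cells are 1 clone, from what event the days are counted: none of this is given in the sources used here. The design text calls the libraries of a pair biological replicates, but separate cultures are not stated, so that each p-value rests on the spread among these libraries alone, and that spread may be technical.

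MACF1 is a spectraplakin, a very large protein that binds both actin filaments and microtubules. Osteoblasts arise from mesenchymal precursors under the transcription factors Runx2 and Sp7, then secrete collagen type I and proteins that bind mineral, and Alpl frees the phosphate that the mineral needs. Canonical Wnt signalling stabilises beta-catenin, which enters the nucleus, binds the DNA-binding proteins Lef1 and Tcf7 and turns on target genes. Several of these targets, Axin2 and Notum among them, feed back as inhibitors.

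Macf1 (ENSMUSG00000028649.15, chromosome 4, 123349633 to 123684360, minus strand, GRCm38) was read first, since its level checks the labels. It stood at 178 and 208 CPM in the control libraries against 172 and 184 CPM in those labelled knockdown. CPM are read counts scaled to library size, with TMM factors, and where 2 pairs of values are set against each other control comes first. The groups overlapped, and the difference on the log2 scale was −0.12 (SE 0.11), with a 95% confidence interval from −0.37 to 0.14 and an adjusted p of 0.478. Adjusted p-values here are Benjamini-Hochberg values over all tested genes from the quasi-likelihood test of edgeR. Macf1 was therefore not shown to be lower, and higher or lower means in the libraries labelled knockdown throughout. Dst, which encodes the other mammalian spectraplakin, stood at 170 and 188 against 199.8 and 264 CPM (log2 fold change 0.37, SE 0.14, adjusted p = 0.0808). The difference of Dst passed without knockdown replicate 1 (0.56, adjusted p = 0.00884). Over all tested genes 15.6% were higher and 13.4% lower. Of 22 measured spectraplakins and microtubule plus-end proteins, 4 were higher and 4 lower, or 18.2% each way, near those shares. Without control replicate 1 the higher count was 1, and relative to the day 0 medians of their chromosomes the lower count was 2. The spectraplakin-related linker Plec was higher by 0.64 (431 and 477 against 631 and 780 CPM, adjusted p = 0.00869). Relative to the day 0 median of its chromosome Plec was higher by 0.25 (adjusted p = 0.228), and without control replicate 1 by 0.55 (adjusted p = 0.0599). The plus-end protein Clasp2 fell by 0.63.

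The osteoblast label was checked against 10 markers in both conditions. Of these, Col1a1, Col1a2, Sparc, Postn, Spp1, Ibsp, Sp7, Runx2 and Alpl were all well above 0 in every library, the lowest value being 41.8 CPM of Alpl, and only Bglap was low, with 9.55 CPM at most. Markers of other cell types were mixed. Adipoq of adipocytes, Ckm of muscle, C1qa of macrophages and Cdh5 of endothelium held 0 counts in each of the 4 libraries, and Acan of cartilage held 1 count in all. Other cartilage genes were well expressed, with a summed level of the chondrocyte list of 265 to 637 CPM, while the sums of the adipocyte, muscle, macrophage and endothelial lists lay between 1.63 and 20.8 CPM. The libraries held 18128624 and 12590033 counted reads in control and 23301514 and 14499406 in those labelled knockdown. Cytoplasmic ribosomal protein genes took 9.02% and 8.3% of the reads in control and 6.23% and 6.06% in the libraries labelled knockdown, and genes of the mitochondrial genome took 2.73% and 2.78% against 4.67% and 5.0%. In RNA from whole cultures, fewer cells of a type and less RNA per cell cannot be told apart.

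Between the groups, 1944 genes were higher in the libraries labelled knockdown (15.6% of those tested) and 1663 were lower (13.4%), 29% in all, with a median log2 fold change of 0.002 over all genes. The groups did not overlap in 65.3% of the genes. The larger differences were mostly rises: 752 genes rose and 338 fell by more than 2.0-fold, and 88 rose and 34 fell by more than 16.0-fold. Among the 2088 genes with a mean over 100 CPM the balance was the other way, with 15.4% higher and 21.8% lower. A fit to all 14 libraries called 711 genes higher and 335 lower, with a common dispersion of 0.0463 against 0.0116 here. The 14 include control day 3 replicate 2, which stood apart from the others, and without it the counts were 2096 and 2057.

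The differences were also ordered by chromosome. Of 478 genes of chromosome 15, 215 were higher and 21 lower, with a median log2 fold change of 0.386 over its genes with a mean of at least 5 CPM. On chromosome 3 the counts were 220 and 27 of 658 (median 0.299) and on chromosome 10 they were 156 and 33 of 604 (0.167). Chromosomes 5 (58 higher and 234 lower of 833), 13 (31 and 110 of 444), 9 (46 and 175 of 708), 6 (55 and 144 of 586) and 2 (87 and 204 of 1010) lay on the other side, with medians of −0.275, −0.253, −0.221, −0.199 and −0.197. Between the replicates of a condition the chromosome medians differed by −0.04 to 0.08 on the log2 scale. The control libraries of days 5 and 0 differed by −0.051 to 0.083.

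The same order stood in the libraries of the other days. At day 0 the medians were 0.389 for chromosome 15, 0.289 for chromosome 3 and −0.311 for chromosome 5, and in the single libraries of day 10 they were 0.396, 0.347 and −0.307. Across the 20 chromosomes the day 5 medians correlated with those of day 0 at 0.985 and with those of day 10 at 0.989, given as a description. On chromosomes 3 and 15 the shift ran along the whole chromosome. In 13 successive blocks of about 40 genes of chromosome 3 the block medians ran from 0.153 to 0.371, and in 10 blocks of chromosome 15 from 0.317 to 0.452. Other chromosomes were split, at bounds chosen after their values were seen. On chromosome 9 the 281 genes from 3000282 to 66508775 (GRCm38) had a median of −0.355, and the 200 genes from 66514637 to 108818844 one of −0.026. Block medians within the latter stretch ran from −0.175 to 0.088. The last 2 blocks of that chromosome, from 108826320 to 124312696, had medians of −0.176 and −0.254. On chromosome 8 the first 80 genes, from 3122061 to 25724887, had a median of 0.361 against 0.028 for the 433 genes beyond. On chromosome X the first 82 genes had a median of −0.413 and the other 243 one of 0.157. DNA was not measured in these libraries, and the cause of the pattern was not tested. When each gene was read relative to the day 0 median of its chromosome, a setting added after seeing the data, 1716 genes were higher and 1145 lower. That reading is given beside many of the genes whose call or direction it changes, and for others with the alternatives at the end.

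**Figure D1:**
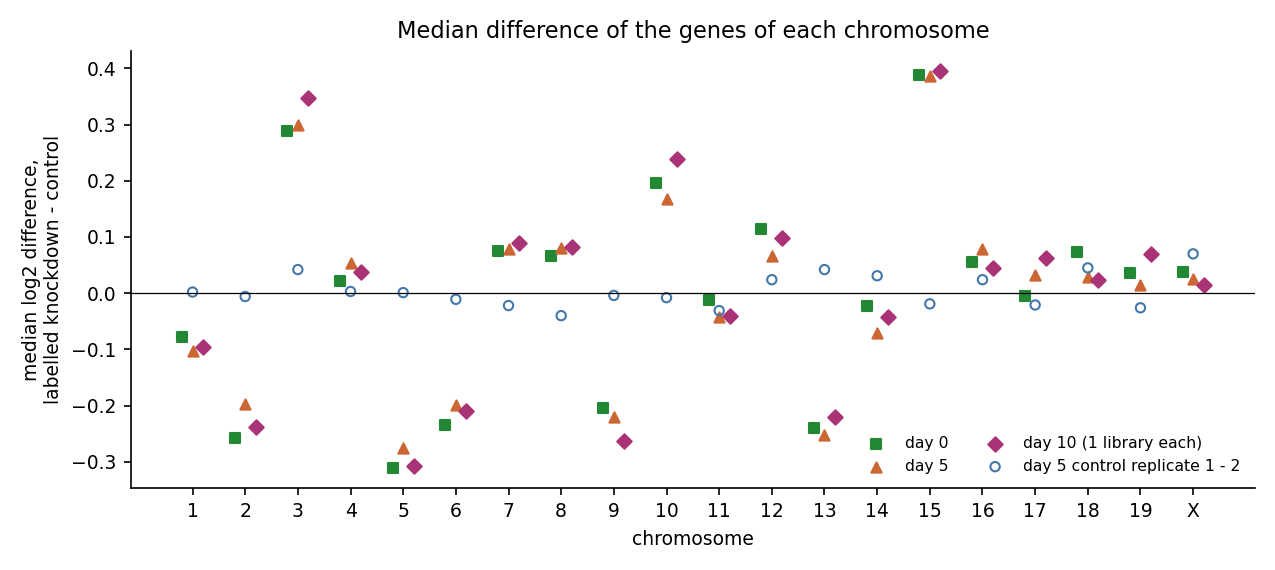
Median log2 difference (libraries labelled knockdown minus control) of the genes of each chromosome with a mean of at least 5 CPM, at days 0, 5 and 10, and the median difference between control replicates 1 and 2 of day 5 (open circles). The medians of days 0, 5 and 10 lie close together on each chromosome, from −0.275 on chromosome 5 to 0.386 on chromosome 15 at day 5, while the open circles lie between −0.04 and 0.07.

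The genes of the mineralising osteoblast were mostly lower. Of 23 measured, 13 were lower and 5 higher, counts that also stood without each library in turn, and the median log2 fold change was −0.745. Ibsp (ENSMUSG00000029306.8, chromosome 5, 104299171 to 104311469, GRCm38), a sialoprotein of bone matrix that nucleates mineral, had 8493 and 7380 against 403 and 355 CPM. Both libraries labelled knockdown lay far below both control libraries, and the level was 20.9-fold lower (log2 fold change −4.39, SE 0.17, adjusted p = 1.35e-06). Alpl (chromosome 4, 137741733 to 137796384), the alkaline phosphatase, was 158 and 152 against 46.1 and 41.8 CPM and fell by 1.82 (SE 0.11, adjusted p = 1.22e-05). Phospho1, which frees phosphate inside matrix vesicles, fell by 2.50, from a mean of 131 to 23.2 CPM. Ifitm5, a small membrane protein of bone-forming cells, had 8.02 and 7.90 against 0.342 and 0.409 CPM, and Cthrc1, a secreted protein of bone surfaces, 67.9 and 63.6 against 2.99 and 2.93 CPM. Pth1r, the receptor for parathyroid hormone, fell by 2.70, from 349 and 350 to 50.7 and 57.3 CPM.

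The promoter of Ibsp is shown for the fall of this abundant matrix gene. It is the 250 bases before the start of transcription in RefSeq (GRCm38.p6, chr5:104299037-104299286, plus strand), with an inverted CCAAT box and an inverted TATAAA in capitals.

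Ibsp: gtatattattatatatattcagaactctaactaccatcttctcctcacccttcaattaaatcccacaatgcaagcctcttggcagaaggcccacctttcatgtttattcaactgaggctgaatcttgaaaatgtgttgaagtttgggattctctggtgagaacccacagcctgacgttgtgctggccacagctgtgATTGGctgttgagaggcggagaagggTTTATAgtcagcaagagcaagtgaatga

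CCAAT, on either strand, was held by 41.2% of 9422 promoters of tested genes and TATAAA by 7.73%. The Runx core TGTGGT stood in 5 of 17 mature osteoblast promoters (29.4%) against 12.5% of all, and that of Ibsp holds none.

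Matrix genes and markers of bone did not all fall. Spp1, a phosphoprotein of bone matrix, was 3979 and 3456 against 2291 and 2161 CPM and fell by 0.74 (SE 0.14, adjusted p = 0.00462). Relative to the day 0 median of chromosome 5 that fall was 0.43 (adjusted p = 0.0515). Sparc, a collagen-binding glycoprotein, fell by 0.74, from 5259 and 5156 to 3106 and 3109 CPM. Col1a1, which encodes the main chain of bone collagen, stood at 6531 and 7301 against 6149 and 6360 CPM (−0.15, SE 0.14, adjusted p = 0.48), and Col1a2 at 8019 and 8688 against 7976 and 8638 CPM (−0.01, adjusted p = 0.973). Postn, a matrix protein of the periosteum, stood at means of 1987 and 2016 CPM (0.02, adjusted p = 0.92). Relative to the day 0 medians of their chromosomes the signs of Col1a2 and Postn turned, to 0.23 and −0.27 (adjusted p = 0.298 and 0.181). Bglap, the osteocalcin gene, was low throughout and higher, at 1.24 and 1.26 against 9.24 and 9.55 CPM. Its near neighbour Bglap2 was 1.38 against 7.87 CPM on average, and reads of these similar genes may be shared. The phosphate carrier Slc20a2 rose by 1.21 and Slc20a1 fell by 0.84.

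Of 18 osteoblast transcription factors 6 were lower and 3 higher, with a median of −0.218. These counts rest on all 4 libraries: leaving out any 1 gave 3 or 4 lower and 1 or 2 higher, and the fit to all 14 libraries gave 2 lower. Mef2c, which acts in late osteoblasts and osteocytes, had 174 and 180 against 40.8 and 39.8 CPM and fell by 2.13 (SE 0.10, adjusted p = 4.31e-06). Dlx3, a homeobox factor, fell by 2.25. Runx2 (chromosome 17, 44495987 to 44814797) was 160 and 148 against 129 and 109 CPM. Its groups did not overlap, as in 65.3% of all tested genes, and it fell by 0.37 (SE 0.12, adjusted p = 0.042). That call was lost without control replicate 1 or 2 or knockdown replicate 2 (adjusted p = 0.174, 0.0716 and 0.213), by limma on log2(RPKM + 1) (0.0705) and relative to its chromosome (0.0518). Sp7, which acts downstream of Runx2, was 98.5 and 128 against 87.8 and 93.1 CPM (−0.32, SE 0.13, adjusted p = 0.102). It lies on chromosome 15, and relative to that chromosome's day 0 median its difference was −0.71 (adjusted p = 0.00575). Without control replicate 1 it was −0.51 (adjusted p = 0.0244).

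Osteocyte genes went both ways, with 3 of 11 higher and 3 lower. Phex, a peptidase of osteocytes that acts in phosphate balance, had 2.20 and 1.42 against 25.4 and 23.04 CPM, a rise of 3.70 (SE 0.22, adjusted p = 1.33e-05). Dmp1, an acidic matrix protein of osteocytes, was 131 and 121 against 76.7 and 66.3 CPM and fell by 0.82 (SE 0.11, adjusted p = 0.00107). Ackr3, which scavenges chemokines at the cell surface, rose by 1.49.

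**Figure D2:**
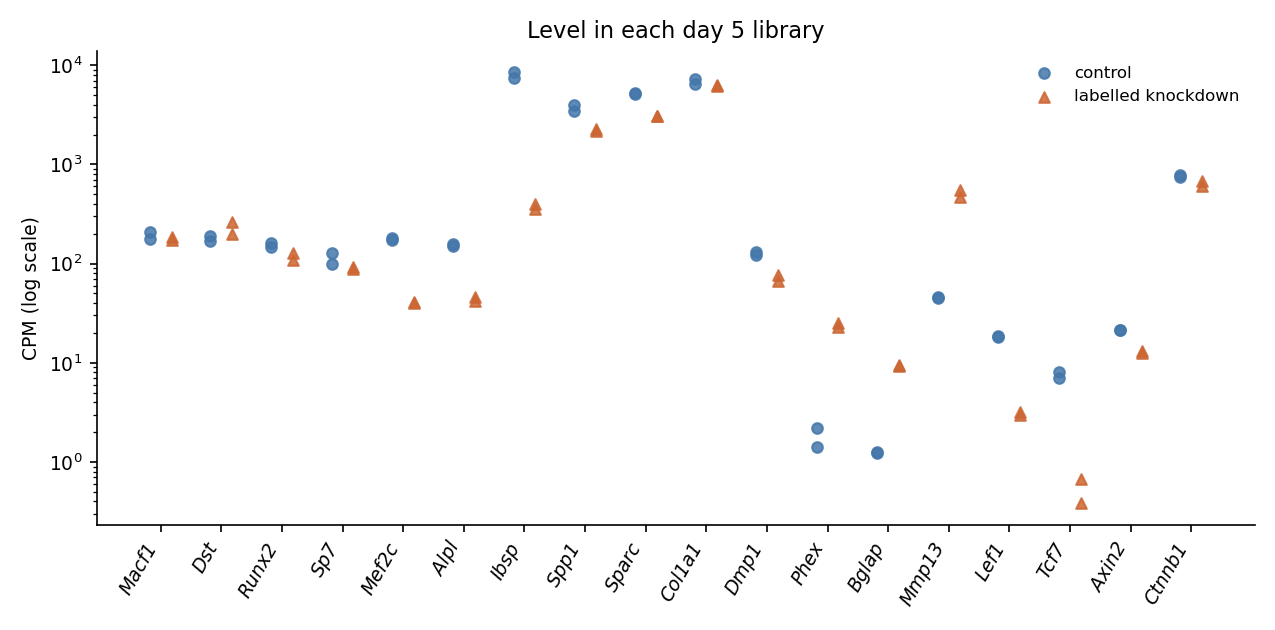
CPM of 18 genes in each of the 4 day 5 libraries on a log axis, with control as circles and the libraries labelled knockdown as triangles. The groups of Macf1 overlap, while Ibsp (8493 and 7380 against 403 and 355 CPM) and Mmp13 (46.4 and 45.0 against 548 and 470 CPM) lie far apart in opposite directions.

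Among enzymes that modify and cross-link collagen, 15 of 26 were lower and 3 higher, with a median of −0.415. In the fit to all 14 libraries 7 were lower and 1 higher. Relative to the day 0 medians of their blocks of genes 11 were lower and 2 higher. P4ha2, a subunit of prolyl hydroxylase, was 185 and 191 against 50.4 and 50.7 CPM and fell by 1.89 (SE 0.10, adjusted p = 7.64e-06), and its paralogue P4ha1 fell by 1.39. The cross-linking oxidase Lox fell by 1.53, from a mean of 574 to 198 CPM, and Loxl1 by 1.56. Adamts2, which trims procollagen, fell by 1.68. Pcolce2, an enhancer of procollagen trimming, went the other way, from 3.16 and 4.03 to 56.1 and 54.0 CPM. The collagen chains themselves split evenly, with 6 of 24 higher and 6 lower. Col11a2, a minor fibrillar chain of cartilage, fell from 233 and 209 to 1.80 and 1.84 CPM, which was the largest fall of all genes with a mean of at least 5 CPM (log2 fold change −6.92, SE 0.15, adjusted p = 1e-07). Col5a1, which starts collagen fibrils, fell by 1.15. The basement membrane chains Col4a1, Col4a2 and Col4a5 rose by 0.79, 0.88 and 0.99, and Col18a1 rose by 1.23.

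Proteoglycans and matrix glycoproteins were 9 higher and 8 lower of 30, the latter 5 without control replicate 2. Aspn and Ogn, small leucine-rich proteoglycans, rose by 1.76 and 2.15, with Aspn at 203 and 168 against 693 and 567 CPM. Dcn, another of them, rose by 1.60, while Fmod, which binds collagen fibrils, fell by 1.66 from a mean of 532 to 168 CPM. Nid1, a linker of basement membranes, fell from 17.2 and 19.98 to 2.01 and 1.57 CPM, and Tnc, a glycoprotein of growing bone surfaces, fell by 1.49.

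Matrix proteases and their inhibitors were 8 higher and 7 lower of 22. Mmp13 (chromosome 9, 7272514 to 7283331), the collagenase of bone and cartilage, rose by 3.48 (SE 0.13, adjusted p = 1.15e-06), from 46.4 and 45.0 to 548 and 470 CPM. Adamts1, which cleaves proteoglycans, rose by 2.88, from 26.04 and 23.5 to 190 and 175 CPM. Timp1, an inhibitor of the metalloproteinases, fell by 2.29, from a mean of 355 to 72.4 CPM, and Timp2 rose by 0.93. Adamts9 held 71 and 62 counts in control and 0 in both libraries labelled knockdown.

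The Mmp13 promoter is shown for the rise of a gene known as a Runx2 and AP-1 target. It is chr9:7272264-7272513 (RefSeq, GRCm38.p6, plus strand), with an inverted Runx core and the AP-1 motif TGACTCA in capitals.

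Mmp13: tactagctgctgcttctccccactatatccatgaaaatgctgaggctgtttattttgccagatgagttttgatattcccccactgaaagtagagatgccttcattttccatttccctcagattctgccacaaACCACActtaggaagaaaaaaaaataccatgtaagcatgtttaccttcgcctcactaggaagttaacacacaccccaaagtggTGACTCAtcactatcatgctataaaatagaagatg

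TGACTCA stood in 3.88% of the 9422 promoters and in 1 of 13 of the protease list.

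Genes of the Wnt pathway were counted by role. Of 25 measured targets of the canonical pathway 11 were lower and 4 higher, with a median of −0.755. Lef1 (chromosome 3, 131110471 to 131224356) fell by 2.57 (SE 0.18, adjusted p = 3.2e-05), from 18.2 and 18.5 to 2.99 and 3.20 CPM, on a chromosome whose median was higher. Tcf7, its relative, had 7.005 and 8.06 against 0.385 and 0.682 CPM. The feedback inhibitors Axin2, Nkd2, Notum and Rnf43 fell by 0.755, 2.69, 2.01 and 2.58, with Axin2 at 21.5 and 21.5 against 12.5 and 13.0 CPM. Tnfrsf19, which belongs to the tumour necrosis factor receptors, fell by 2.00, from 382 and 370 to 97.98 and 90 CPM, and Myc by 0.81. Ccnd1, the cyclin of early G1, rose by 0.70 and Jun by 0.52. Wisp1, a matricellular Wnt target, fell by 1.17. The Tcf/Lef core CTTTGAA was in none of 15 promoters of the list and in 3.62% of all, and says only that these letters are not in the windows.

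Of 25 ligands and receptors 9 were lower and 3 higher, and without control replicate 1 the latter count was 1. Wnt11 held 38 and 42 counts in control and 0 in both libraries labelled knockdown, and Wnt7b 36 and 20 against 3 and 0. Wnt5b, known for signalling independent of beta-catenin, fell by 2.21. Wnt10b, which acts through beta-catenin in bone, was higher by 0.57, and by 0.18 (adjusted p = 0.357) relative to chromosome 15. The receptors Fzd1 and Fzd7 fell by 0.86 and 0.72. The intracellular components were 3 higher and 2 lower of 20, and without control replicate 1 or 2 the former count was 1. With all 4 libraries 15.0% of the components were higher and 10.0% lower, beside 15.6% and 13.4% of all tested genes. Ctnnb1, which encodes beta-catenin, was 783 and 747 against 687 and 608 CPM (−0.24, SE 0.12, adjusted p = 0.161). Relative to the day 0 median of its own block of genes on chromosome 9 the value was 0.10 (adjusted p = 0.602). Wls, which escorts Wnt ligands to the surface, was higher by 0.45, and by 0.16 (adjusted p = 0.362) relative to chromosome 3. Tcf7l1 and Bcl9l were lower by 0.37 and 0.36, and by 0.13 and 0.16 (adjusted p = 0.438 and 0.332) relative to their chromosomes. Each of the calls of Wls, Tcf7l1 and Bcl9l was also lost without 1 or another of the libraries. Of 8 secreted antagonists 4 were lower and 3 higher, with values of the list from −4.73 to 3.01. Wif1 fell by 1.45, and Dkk3 and Igfbp4, which binds Wnt receptors as well as IGF, rose by 0.92 and 0.89.

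Nuclear repressors of Wnt and Runx2 activity, the class that the series' title names, were 6 higher and 3 lower of 21, with a median of −0.061. Without control replicate 1 they were 4 and 1, and in the fit to all 14 libraries 2 were higher. Tle2, a corepressor that binds Tcf proteins, rose by 1.43, from 14.9 and 19.7 to 45.6 and 46.6 CPM. The deacetylases Hdac7 and Hdac4 rose by 0.85 and 0.69. Ctbp1, a corepressor, was lower by 0.51, and by 0.20 (adjusted p = 0.244) relative to chromosome 5 and 0.43 (adjusted p = 0.0683) without control replicate 2. Tcf12 was 158 and 161 against 140 and 133 CPM (−0.22, SE 0.10, adjusted p = 0.123), and E2f6 27.1 and 22.8 against 26.7 and 28.1 CPM (0.13, SE 0.14, adjusted p = 0.518). RNA levels give no location of these proteins in the cell.

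Other signals between bone cells differed as well. Among 35 BMP and TGF-beta pathway genes 13 were lower and 6 higher. Bmp4, a bone-inducing ligand, fell by 1.75 (70.8 and 78.5 against 21.2 and 23.2 CPM), Grem1, its antagonist, by 2.29, and Tgfb1 and Tgfb2 by 1.12 and 1.33. Id1 and Id2, direct targets of BMP signalling, rose by 1.38 and 1.16, and Chrdl1, another antagonist, rose by 1.06 from a mean of 552 to 1156 CPM. Among FGF and IGF genes 11 of 26 were higher and 5 lower, the former 7 without control replicate 1. Igf1, a growth factor for osteoblasts, rose by 1.91 (44.8 and 37.2 against 160 and 149 CPM), and its binding proteins Igfbp5 and Igfbp6 rose by 1.96 and 1.98. Igfbp2 fell from 142 and 127 to 2.65 and 2.32 CPM, and the adaptor Irs1 fell by 1.61. Tnfrsf11b, the decoy receptor that holds back osteoclast formation, fell by 2.04 (441 and 406 against 101 and 106 CPM). Csf1, which osteoclast precursors need, rose by 0.74, and the vitamin D receptor Vdr rose by 1.86. The ligand Angpt1 held 1 and 2 counts in control and 743 and 442 in the libraries labelled knockdown.

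**Figure D3:**
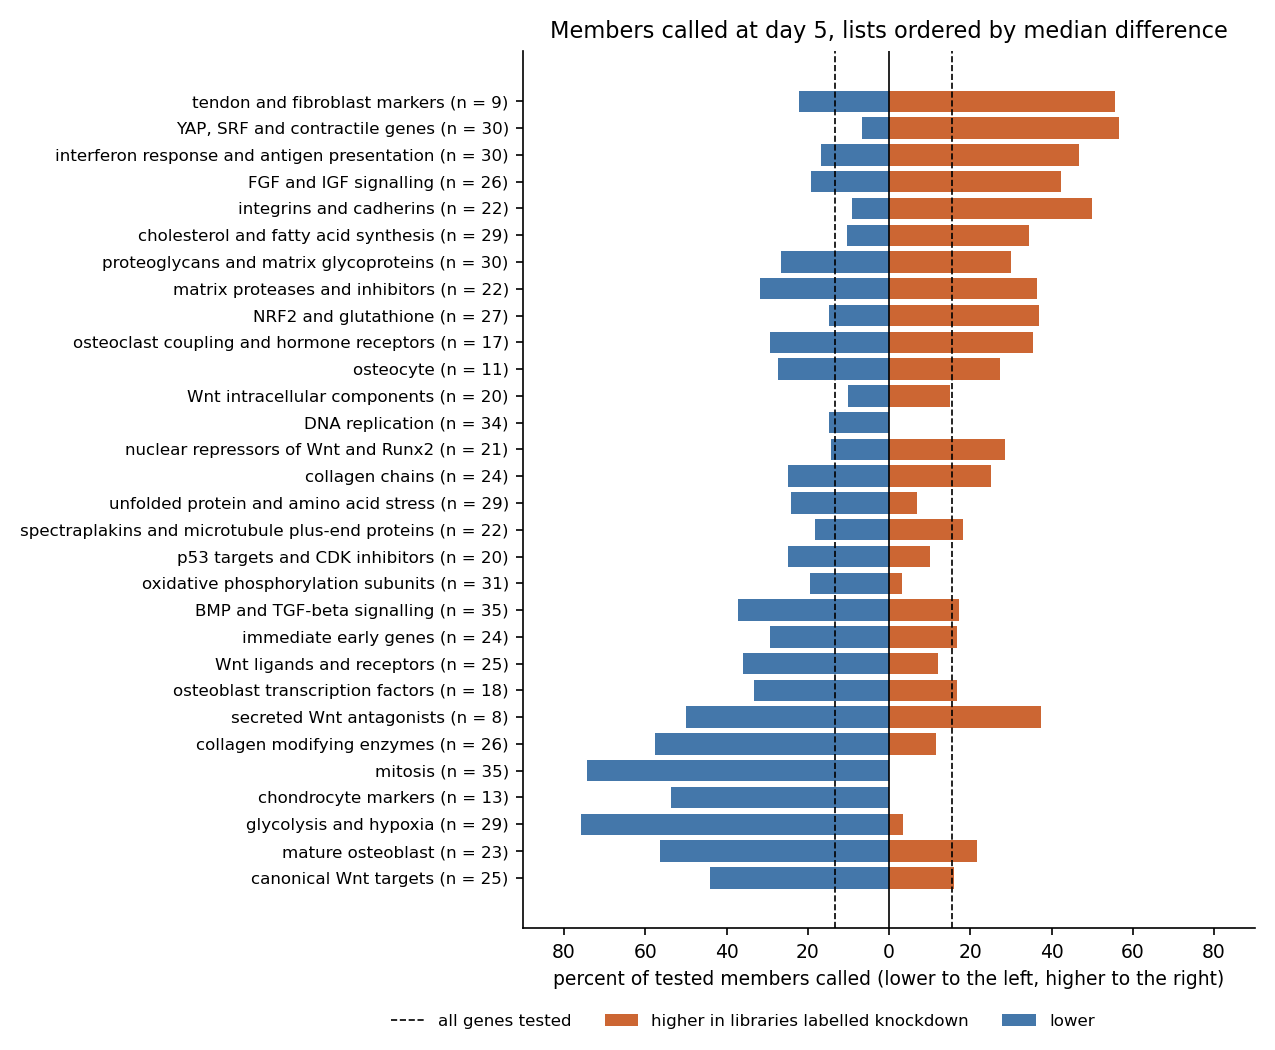
Percent of the tested members of each list with at least 8 tested members that were called higher (right) or lower (left) at day 5. Dashed lines mark 15.6% and 13.4%, the shares over all genes. Glycolysis and hypoxia genes (75.9% lower), mitosis genes (74.3% lower) and YAP, SRF and contractile genes (56.7% higher) reach far beyond the lines on 1 side.

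Genes of glycolysis and of the hypoxia response were lower as a group. Of 29 measured, 22 were lower and 1 higher, with a median of −0.728. Ankrd37, a target of hypoxia-inducible factor, had 33.5 and 27.9 against 6.03 and 5.39 CPM and fell by 2.42 (SE 0.17, adjusted p = 2.85e-05). Hk2, which phosphorylates glucose, fell by 1.94, from 69.8 and 61.0 to 17.7 and 16.4 CPM. The glycolytic enzymes Pkm, Pfkl, Pgk1, Aldoa, Tpi1, Eno1, Gapdh and Ldha fell by 1.07, 1.05, 1.04, 0.78, 0.73, 0.73, 0.69 and 0.65. Pdk1, which keeps pyruvate out of the mitochondrion, fell by 1.28, Bnip3, a mitophagy receptor, by 1.28, and Car9, a carbonic anhydrase of hypoxic cells, by 1.62. Pfkm, the muscle form of phosphofructokinase, rose by 0.999. In the fit to all 14 libraries 12 of the list were lower, and leaving out each library in turn gave 19 to 21. Subunits of oxidative phosphorylation encoded in the nucleus were 6 lower and 1 higher of 31, with a median of −0.122. Without control replicates 1 and 2 and knockdown replicate 1 in turn 3, 3 and 2 were lower, and relative to their chromosomes 3 were. Of 21 genes of the mitochondrial genome 9 were higher and 0 lower by edgeR, with mt-Nd5 at 2799 and 2390 against 5481 and 5029 CPM. By DESeq2 the counts were 10 and 0, and at an unadjusted p under 0.05 edgeR gave 12 and 0. Without knockdown replicate 1 the adjusted calls were 9 higher and 1 lower.

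The core ACGTG of the hypoxia response element was found in 16 of 27 promoters of this list (59.3%) and in 25.2% of all 9422, on either strand. That of Ankrd37, shown as its largest fall, lies at chr8:45999851-46000100 (RefSeq, GRCm38.p6, minus strand), with ACGTG in capitals.

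Ankrd37: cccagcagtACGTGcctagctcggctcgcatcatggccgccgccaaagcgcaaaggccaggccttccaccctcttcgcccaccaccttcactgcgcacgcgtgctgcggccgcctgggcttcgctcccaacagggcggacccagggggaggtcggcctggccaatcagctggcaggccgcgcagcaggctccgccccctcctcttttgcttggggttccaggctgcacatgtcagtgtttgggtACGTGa

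Contractile and cytoskeletal genes were higher. Of 30 targets of YAP and SRF and genes of actomyosin, 17 were higher and 2 lower, with a median of 0.443. In the fit to all 14 libraries 10 were higher and 0 lower. Relative to the day 0 medians of their blocks of genes 15 were higher and 0 lower. Myl9, the regulatory light chain of myosin, had 98.1 and 118 against 334 and 377 CPM, a rise of 1.72 (SE 0.13, adjusted p = 3.89e-05). Mylk, the kinase that phosphorylates that chain, rose by 2.10 (31.5 and 33.1 against 139 and 139 CPM). Acta2, Actg2, Tpm1 and Tpm2 rose by 1.49, 1.69, 1.67 and 1.68, and the non-muscle myosin Myh9 by 0.87. Cyr61, a secreted YAP target, rose by 0.67, whereas Tagln, an actin-bundling protein, and Yap1 were lower by 0.54 and 0.49. Yap1 was lower by 0.29 relative to its chromosome (adjusted p = 0.0782), and Tagln by 0.25 relative to its block of genes (adjusted p = 0.11). Integrins, cadherins and junction genes were 11 higher and 2 lower of 22. Without control replicates 1 and 2 and knockdown replicate 2 in turn 5, 7 and 7 were higher, and in the fit to all 14 libraries 2 were. Cdh11, the osteoblast cadherin, rose by 0.61 and Itga6, a laminin receptor chain, by 1.50. Relative to the day 0 medians of their chromosomes, 7 of the adhesion list were higher and 1 lower.

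A CArG box, the motif that SRF binds, stood in 4 of 26 promoters of the contractile list (15.4%) and in 1.38% of all. That of Myl9 is chr2:156775214-156775463 (RefSeq, GRCm38.p6, plus strand), with the box in capitals.

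Myl9: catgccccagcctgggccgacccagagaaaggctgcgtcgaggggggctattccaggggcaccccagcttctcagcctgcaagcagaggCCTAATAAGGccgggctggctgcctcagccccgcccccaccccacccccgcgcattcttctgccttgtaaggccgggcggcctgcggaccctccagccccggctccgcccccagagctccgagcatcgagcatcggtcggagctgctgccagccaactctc

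Genes of mitosis were lower, by small amounts. Of 35 measured, 26 were lower, with a median of −0.479, and the highest value was −0.034. The checkpoint kinase Bub1b was 146 and 151 against 79.5 and 82.6 CPM (−0.88, SE 0.10, adjusted p = 0.000347), and Plk1, Aurkb and Birc5 fell by 0.59, 0.59 and 0.68. Mki67 was lower by 0.36 (adjusted p = 0.0376), a call lost without any 1 of the 4 libraries. Without each library in turn 17 to 20 were lower, the fewest without control replicate 1, and in edgeR's fit to all 14 libraries 0 passed, with 13 lower at an unadjusted p under 0.05. DESeq2 on the day 5 libraries called 24 lower and limma on log2(RPKM + 1) called 22. Of 34 genes of DNA replication 5 were lower, or 3 without control replicate 1, with a median of −0.048. The 5 lower are 14.7% of the list, beside 13.4% of all tested genes. Among those 5, Mcm7 and Rfc5 lie on chromosome 5, and relative to its day 0 median they were lower by 0.18 and 0.15 (adjusted p = 0.238 and 0.43).

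Interferon response and antigen presentation genes were 14 higher and 5 lower of 30, with a median of 0.437. Without control replicate 1 they were 10 and 1. H2-D1 and H2-K1, heavy chains of class I, rose by 1.09 and 0.94, with H2-D1 at 203 and 180 against 397 and 418 CPM, and B2m, their light chain, was higher by 0.50 (adjusted p = 0.00797, or 0.0693 and 0.0649 without control replicate 1 or 2). Mx1, an antiviral GTPase, held 2 and 2 counts in control and 116 and 60 in the libraries labelled knockdown. Ifit3, another antiviral protein, rose by 1.50. Ifit1, Ifih1 and Gbp7 were among the 5 lower, and the lowest value of the list was −1.24. In the fit to all 14 libraries 5 of the list were higher. Genes of the NRF2 response and glutathione were 10 higher and 4 lower of 27. Without control replicate 1 the former count was 6, without control replicate 2 the latter was 2, and in the fit to all 14 libraries 5 were higher. The quinone reductase Nqo1 rose by 2.06 (10.9 and 10.4 against 42.3 and 47.0 CPM). Keap1, the adaptor that marks NRF2 for degradation, was lower by 0.65, and by 0.29 (adjusted p = 0.116) relative to its block of genes. Cholesterol and fatty acid synthesis genes were 10 higher and 3 lower of 29. Without control replicates 1 and 2 and knockdown replicate 2 in turn 4, 6 and 5 were higher, and in the fit to all 14 libraries 2 were.

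Some markers of other cell types differed between the groups, in both directions. Of 13 measured chondrocyte markers 7 were lower, and the summed level of the list was 637 and 615 against 284 and 265 CPM. Col2a1, the fibrillar collagen of cartilage, fell by 0.60, and Sox6 and Hapln1 by 2.02 and 3.03. The other 6 of the list did not pass, and the highest value of the list was 1.75. At an unadjusted p under 0.05 edgeR gave 2 of the list higher and 7 lower. Of 9 tendon and fibroblast markers 5 were higher and 2 lower (1 without control replicate 1 or knockdown replicate 2), with sums of 178 and 180 against 351 and 329 CPM. Pdgfra and Cd34 rose by 1.05 and 1.26, and Scx, a tendon factor, fell by 1.32. Of 4 measured muscle markers 3 were higher, with sums of 5.96 and 6.12 against 20.6 and 20.8 CPM, beside the rise of contractile genes. Myog held 0, 0, 5 and 0 counts and Myl1 none. The macrophage sum was 5.13 and 4.77 against 12.8 and 15.1 CPM, beside the rise of interferon genes. Of its 3 measured markers only Lyz2 passed, up by 2.41, and the other 2 were at 0.469 and 0.482. Ptprc held 0, 0, 2 and 1 counts and Cd68 5, 6, 1 and 6. The part of these markers in the other results was not tested.

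Some of the largest differences lay outside the lists. Panx3, a channel protein of bone and cartilage cells, fell from 166 and 145 to 5.77 and 6.20 CPM, C1qtnf3, a secreted protein of cartilage, from 121 and 128 to 4.79 and 7.43 CPM, and Slc8a3, a sodium-calcium exchanger, from 45.4 and 45.7 to 1.62 and 1.50 CPM. H19, an imprinted non-coding RNA, fell from 550 and 449 to 6.63 and 8.52 CPM (log2 fold change −6.06, SE 0.18, adjusted p = 3.86e-07). Abi3bp, a matrix protein of mesenchymal cells, rose from 7.12 and 6.48 to 134 and 117 CPM, and S100b, a calcium-binding protein, from 7.57 and 7.03 to 136 and 99.5 CPM. Cdh26, Csgalnact1, Jsrp1, Epb4.1l4b and Enpep each had 6 to 13 counts in the control libraries and 159 or more in those labelled knockdown. Syt1 and Krt9 held 1 or 2 counts per control library against 260 and 138, and 327 and 135. Among the genes with the most reads, Malat1, a nuclear non-coding RNA, rose by 1.36, and the non-coding RNA Yam1 had 4340 and 23130 CPM in the 2 libraries labelled knockdown. The sign of Yam1 turned from 0.92 to −0.74 without knockdown replicate 2, and nearly all of its exons overlap another annotated gene.

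Whether a difference belonged to day 5 was tested against day 0, whose libraries are separate and where 27.7% of the same genes passed. The difference changed between days 0 and 5 in 1198 genes (9.64%), 690 of them more positive at day 5 (5.55%) and 508 more negative (4.09%). Of these, 414 were called at day 5 but not at day 0, 404 at day 0 but not at day 5, and 158 in opposite directions. Of the 1944 genes higher at day 5, 954 were higher at day 0 as well (49.1% of the day 5 list and 54.5% of that of day 0), and of the 1663 lower, 762 were lower at day 0 (45.8% and 44.9%). Over all tested genes 14.1% were higher and 13.6% lower at day 0. In the single libraries of day 10, 95.4% of the genes higher at day 5 and 90.7% of those lower had the same sign. Over all tested genes 50.3% had a positive sign at day 10 and 49.7% a negative one. Against day 3 the change passed in 3 genes (0.0241%), Col11a2, Wif1 and Anxa8, with differences at day 5 more negative by 4.13, 3.57 and 2.83. That fit holds the outlying control library of day 3, and without it 87 genes passed, 29 more positive (0.233%) and 58 more negative (0.467%).

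Some lists differed between the days as groups. For glycolysis and hypoxia genes 18 of 29 passed the test between days 0 and 5, each more negative at day 5, and at day 0 the list had 5 higher and 5 lower with a median of −0.011. Ankrd37 had 3.47 and 2.50 against 2.71 and 3.27 CPM at day 0. On the same scale, that of all 14 libraries, it had 32.95 and 27.4 against 5.93 and 5.30 CPM at day 5. At day 10 the median of the list was 0.159. For contractile genes 14 of 30 passed, each more positive at day 5, and at day 0 the list had 4 higher and 12 lower (median −0.263). For interferon genes 13 of 30 passed, each more positive, from 2 higher and 10 lower at day 0 (median −0.304). Proteoglycans and matrix glycoproteins had the most changes of these lists, 20 more positive and 1 more negative of 30, from 3 higher and 20 lower at day 0. Collagen chains were 12 more positive and 2 more negative of 24. For the mature osteoblast list the changes were 6 in each direction, and at day 0 it had 3 higher and 11 lower (median −0.495). At day 10 its median was 0.13. Of the other lists with more members lower than higher at day 5, some stood alike at day 0 and some did not. Canonical Wnt targets had 4 higher and 11 lower at day 0 (median −0.625), and collagen modifying enzymes 3 and 16 (median −0.422). Mitosis genes had 0 higher and 12 lower of 35 at day 0 (median −0.04), and chondrocyte markers 1 and 3 of 13 (median −0.002).

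**Figure D4:**
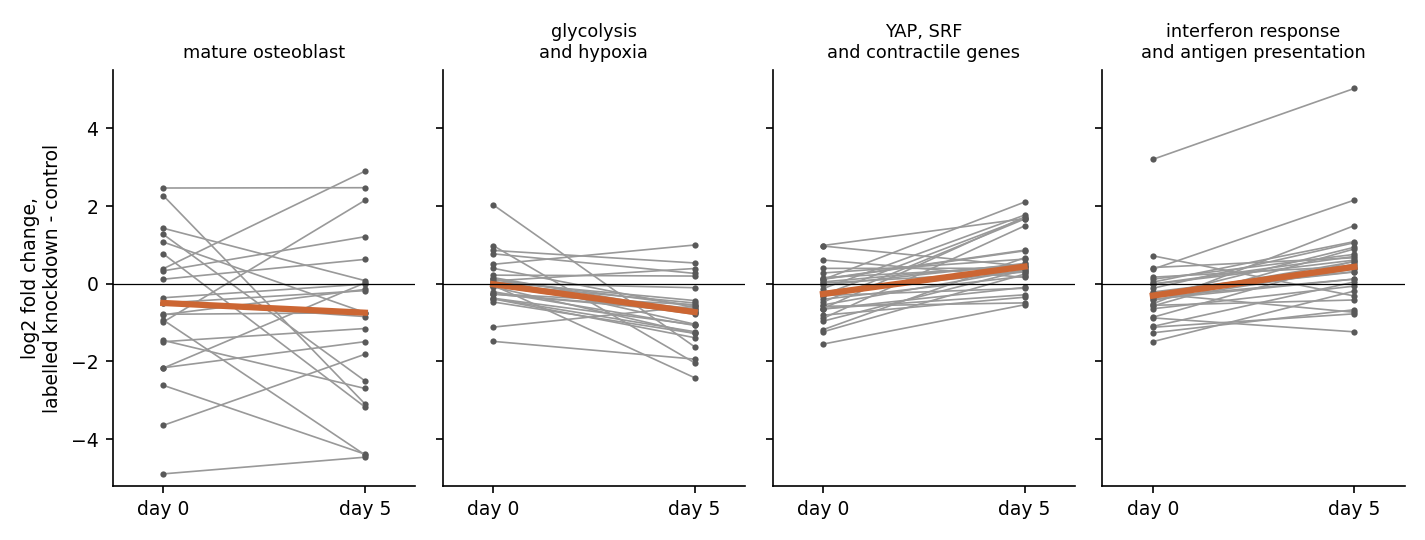
Log2 fold change (libraries labelled knockdown minus control) of each tested member of 4 lists at day 0 and day 5, joined by grey lines, with the list median in orange. The median of glycolysis and hypoxia genes goes from −0.011 to −0.728, that of contractile genes from −0.263 to 0.443 and that of interferon genes from −0.304 to 0.437, while mature osteoblast genes cross in both directions.

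The difference changed in single genes as follows. Dmp1 was 14.5 and 11.8 against 128 and 107 CPM at day 0, and 128 and 119 against 75.4 and 65.2 CPM at day 5, on the scale of all 14 libraries. Its difference was more negative at day 5 by 3.94 (SE 0.19, adjusted p = 1.44e-06). In control Dmp1 was higher at day 5 than at day 0 and in the libraries labelled knockdown it was lower. Tnfrsf11b was 13.4 and 12.2 against 40.2 and 38.7 CPM at day 0 and 434 and 399 against 99.4 and 104 CPM at day 5 (−3.64, SE 0.14, adjusted p = 3.31e-07). H19 held 0.757 and 0.209 CPM in control at day 0 and 541 and 441 CPM at day 5, while the libraries labelled knockdown held 6.51 and 6.75, and 6.51 and 8.38 CPM. Col11a2 was 0.821 and 0.765 CPM in control at day 0 and 229 and 205 CPM at day 5, against 1.08 and 0.487, and 1.76 and 1.81 CPM, so that its groups overlapped at day 0. Anxa8, a calcium-dependent membrane-binding protein, was 27.6 and 29.4 against 100 and 113 CPM at day 0 and 68.2 and 66.9 against 21.9 and 25.3 CPM at day 5.

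In other genes the difference was more positive at day 5. Akap12, a scaffold for protein kinase A, was 141 and 145 against 68.1 and 70.4 CPM at day 0. At day 5 it was 20.7 and 20.5 against 137 and 124 CPM, so that the difference was more positive by 3.73 (SE 0.13, adjusted p = 3.31e-07). Nov, a matricellular protein, was 268 and 252 against 69.0 and 67.2 CPM at day 0 and 27.6 and 27.9 against 83.4 and 75.2 CPM at day 5. Myl9 was 406 and 419 against 260 and 279 CPM at day 0, and 96.5 and 116 against 329 and 371 CPM at day 5. In each of these the control level was lower at day 5 than at day 0, and that of the libraries labelled knockdown was higher. Npnt, an integrin ligand of bone matrix, was 351 and 402 against 44.7 and 46.3 CPM at day 0, and 926 and 1015 against 1345 and 1534 CPM at day 5. Its rise at day 5 was 0.57, and the call was lost relative to chromosome 3 (0.28, adjusted p = 0.155) and without control replicate 1 or knockdown replicate 2 (adjusted p = 0.112 and 0.0576). Sfrp2, a Wnt antagonist, and Matn4, a matrix adaptor, were lower at day 0 by 3.33 and 2.77 and did not pass at day 5 (−0.23 and 0.04, adjusted p = 0.122 and 0.791). Relative to chromosome 3, Sfrp2 was lower at day 5 by 0.52 (adjusted p = 0.00714).

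**Figure D5:**
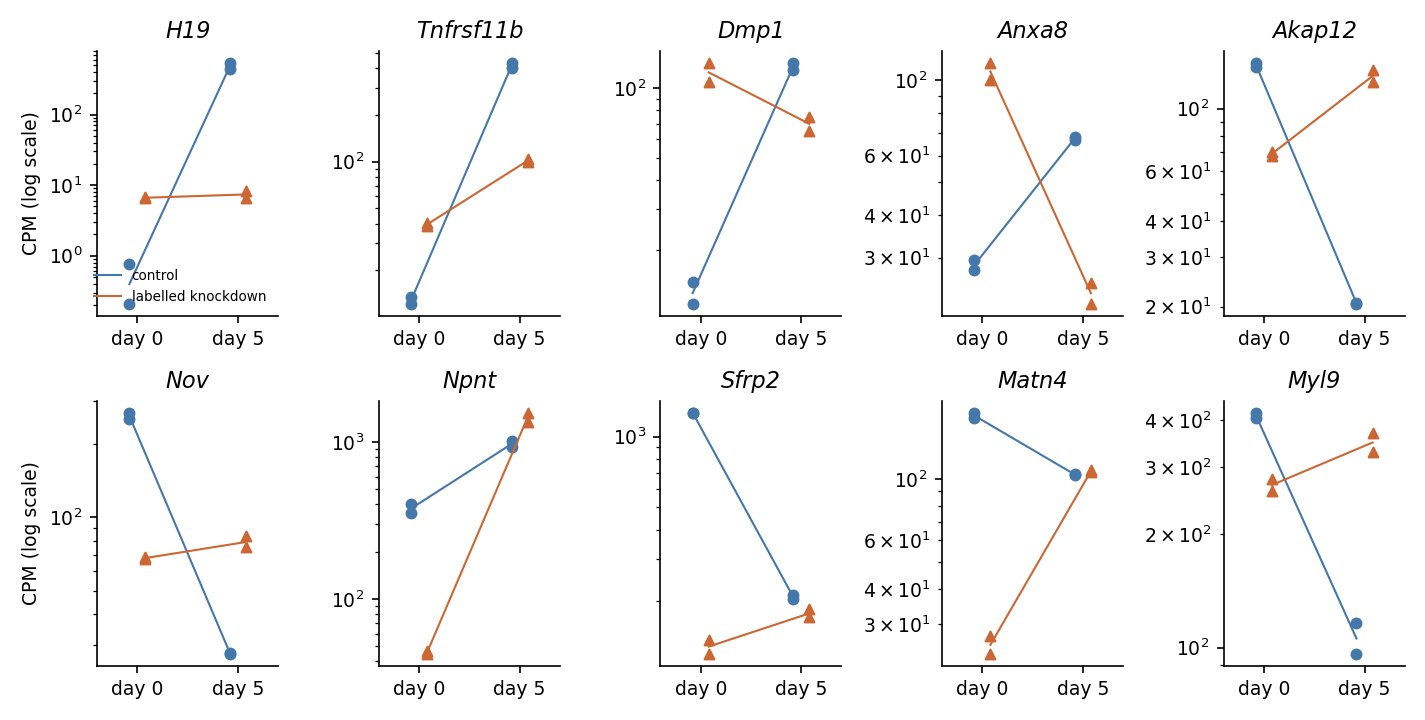
CPM (log axes, scaled over all 14 libraries) of 10 genes in each library of day 0 and day 5, with control as circles, the libraries labelled knockdown as triangles and lines through the geometric means. For H19 the control libraries go from 0.757 and 0.209 CPM to 541 and 441 CPM while those labelled knockdown stay between 6.51 and 8.38 CPM, and the lines of Dmp1, Akap12, Nov and Myl9 cross.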

How the data were processed

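Per the labels' protocols, polyadenylated RNA of DNase-treated total RNA went into directional libraries. Per the submitters' processing notes, TopHat2, edgeR and the build GRCm38 were used. Versions, the counting tool and its strand setting: not given in the sources used here. Per gene and library, the authors deposited counts of reads, not normalised, and RPKM values. Tests were run on the counts. RPKM values served as an alternative on the log2(RPKM + 1) and log2(RPKM + 0.1) scales.

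The 12430 genes that reached 10 counts in 2 or more of the 4 day 5 libraries were fitted with edgeR 4.0.16 (R 4.3.3, TMM scaling, robust quasi-likelihood test). Benjamini-Hochberg adjustment ran over all of them, with a threshold of 0.05. The change between days was the interaction in the 8 libraries of both days. DESeq2 1.42.0 and limma 3.58.1 were alternatives. The tests were also run on simulated counts, drawn independently for each library and without shifts shared along chromosomes or between paired libraries. That run cannot show how the tests behave where such shifts are present. The libraries of a pair differed by more than sampling noise (chi-square per degree of freedom of 13.2 in control and 41.2 in the libraries labelled knockdown). That measure is summed over genes, so that abundant ones such as Yam1 weigh heavily in it. On the scale of log2(CPM + 1) the pairs correlated at 0.9935 in control and 0.9921 in the libraries labelled knockdown. Each library was counted as 1 sample.

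The members and the 34 lists were chosen with earlier results of these data known. Of 871 list entries 845 matched a gene. Genes are named by list, by name (20 genes), by size (the 12 largest rises and falls with a mean of at least 5 CPM), by the tests between days and by read number. Other list members given with values were picked for what they encode, after their values were seen. Positions come from GENCODE M21 (24181 of 24346 genes matched) and promoters from RefSeq. Genes that overlap or have near copies may share reads. Where a library held 0 to 3 counts, counts stand in place of a fold change.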

Additional observations from a re-analysis of the deposited data

Results flagged for a closer look

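Of the named genes with more than 3 counts in each of the 8 libraries of days 0 and 5, 59 had a difference between the conditions that changed between the days by the interaction test (edgeR, adjusted p under 0.05), which flags them as differing between time points. The values are the log2 difference at day 5 minus that at day 0. In 25 the difference was more negative at day 5, first in Col11a2 (−6.94), Slc8a3 (−5.42), C1qtnf3 (−4.15), Panx3 (−4.00), Dmp1 (−3.94), Car9 (−3.66), Tnfrsf11b (−3.64), Ifitm5 (−3.47) and Anxa8 (−3.39). Next came Slc16a4 (−3.00), Wif1 (−2.51), Ankrd37 (−2.38), Spp1 (−1.82), Igfbp2 (−1.77), Ibsp (−1.76), Mef2c (−1.71), Col2a1 (−1.58) and Lef1 (−1.50). Then followed Klf2 (−1.24), Eda2r (−1.24), Pth1r (−1.22), Tgfbi (−1.18), Bbc3 (−1.17), P4ha2 (−0.95) and Nfatc1 (−0.64). 

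In 34 the difference was more positive at day 5, first in Akap12 (3.73), S100b (3.72), Npnt (3.64), Cdh26 (3.64), Enpep (3.63), Nov (3.48), Aspn (3.27), Tnfrsf19 (3.26) and Abi3bp (3.15). After these stood Ogn (3.13), Sfrp2 (3.10), Matn4 (2.81), Igf1 (2.79), Myl9 (2.36), Gsta4 (2.21), Adamts1 (2.19), Tpm1 (2.14) and Ifit3 (2.01). Further ones were Mylk (2.00), Bmp4 (1.98), Actg2 (1.97), Lmod1 (1.89), Tle2 (1.80), Plekha6 (1.50), Msx2 (1.46), Ltbp2 (1.39) and Igfbp5 (1.31). Smaller ones were Ecm1 (1.17), H2-D1 (1.04), Mmp13 (1.02), Adamts2 (0.97), Gstm1 (0.93), Col1a1 (0.65) and Sqle (0.54). 

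Against day 3, 3 named genes changed, Col11a2 (−4.13), Wif1 (−3.57) and Anxa8 (−2.83), in a fit that holds control day 3 replicate 2. No group of day 5 has the 4 libraries that a test for outlying samples needs.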

How the results depend on the processing

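The 2 libraries per condition leave 2 residual degrees of freedom, and the median SE was 0.63 for genes under 1 CPM and 0.111 for those over 100 CPM. Of the former 14.5% were higher and 4.07% lower, and of the latter 15.4% and 21.8%. The spread assumed decided the counts more than the tool. With all 14 libraries in the fit 711 genes were higher and 335 lower, and 183 changed between days 0 and 5. Leaving out each day 5 library gave 1368 to 1679 higher and 1137 to 1450 lower, and the lone library of a condition was then assumed to vary like the pair. Changes between days 0 and 5 numbered 740 to 874 without 1 library, the fewest without knockdown day 0 replicate 1. Changes between days 3 and 5 numbered 0 to 5691 without 1 library, the most without control day 3 replicate 1, and 42 by DESeq2, 14 with all 14 libraries and 144 with all but control day 3 replicate 2.

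With the replicate number as a block, 3245 genes were higher and 3226 lower, 3494 changed between days 0 and 5 and 0 between days 3 and 5. Deviations of samples with the same number correlated at 0.305, but there are only 2 pairs at day 5 and the labels do not say that a number pairs samples. The common dispersion was 0.00281 with the block and 0.0116 without.

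Among named genes, signs turned only in those that had not passed. Ctnnb1 was 0.10 and E2f6 −0.09 relative to their blocks of genes. Col1a2 was 0.01 with upper quartile scaling, 0.00 without the filter, −0.08 without control replicate 1, 0.05 without control replicate 2 and 0.05 without knockdown replicate 1, and 0.23 relative to its chromosome. Yam1 was −0.74 without knockdown replicate 2 and 1.68 without replicate 1, and Vim 0.15 and 0.20 relative to its chromosome and block. Relative to their blocks of genes, signs also turned in list members that had passed. Among these were Atf4 (−0.08), Fosl2 (0.07), Fbln2 (0.02) and Ckap5 (0.01). The cause was not tested. Of 160 named genes that passed, 0 reversed in any setting, 49 lost the call with all 14 libraries, 17 relative to their chromosomes, 21 without control replicate 1 and 4 by DESeq2.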
